A study of Mus musculus with 10 samples.

Results

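The pathway examined here is glycolysis with its pentose phosphate branch, followed as the RNA of 31 genes across 5 immune cell populations of the mouse mammary gland. The members were given as a list of gene symbols for glucose transport, glycolysis, lactate and pyruvate handling and the pentose phosphate pathway by their known roles. The rule uses no measured value, although the list was drawn up with earlier results of these data known. All 31 were found among the 27179 genes of the count table, and all 31 passed the low-count filter that left 15681 genes for testing; Fbp1 passed it only through the stromal macrophages, where it is high. Cells were sorted from the mammary glands of C57BL/6 mice that were adult, virgin and female, with no genetic change or treatment named in the labels. There were 2 macrophage populations, ductal macrophages and stromal macrophages, and 3 of dendritic cells, named CD11b+, CD11b-CD103+ and CD11b-CD103-. Each had 2 biological replicates, so there were 10 libraries in all. The labels do not say how each population was gated, or whether a replicate was 1 mouse or a pool. Below, the CD11b- dendritic cells are called CD103+ and CD103- for short.

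Glycolysis splits glucose into pyruvate in the cytosol, yielding ATP and NADH, and pyruvate is then either reduced to lactate and exported or oxidised in mitochondria. The pentose phosphate pathway leaves glycolysis at glucose 6-phosphate: its oxidative arm makes NADPH, which feeds the phagocyte oxidase and glutathione reduction, and its non-oxidative arm exchanges sugar phosphates with glycolysis and supplies ribose. In macrophages and dendritic cells, the use of these pathways is known to change with activation, oxygen supply and tissue of residence.

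Levels are given as CPM, the usual depth-scaled count, here over the tested genes and after TMM scaling, for one gene across libraries, and as RPKM, the same value per kilobase of the deposited gene length, wherever 2 genes are compared. Library totals ran from 5636092 to 23093742 counts, with both ductal libraries and CD11b+ replicate 2 the 3 smallest. Mitochondrially encoded genes took 24.8% and 23.1% of the counts in stromal macrophages, 0.631% and 0.891% in ductal macrophages and 1.88% to 6.29% in dendritic cells. The summed level of 10 macrophage markers was 20500 and 18800 CPM in ductal macrophages, 10300 and 7380 in stromal macrophages, 2290 and 2130 in CD11b+ and 220 to 331 in CD11b- dendritic cells. The summed level of 6 dendritic cell markers was 1150 and 826 CPM in ductal macrophages, 43.0 and 116 in stromal macrophages, 454 and 295 in CD11b+ dendritic cells and 1280 to 2560 in CD11b- dendritic cells. In ductal macrophages the 6 markers were unlike. Itgax had 3720 and 3226 counts, Dpp4 746 and 609, Ccr7 411 and 374 and Kit 146 and 134. Flt3 had only 5 and 12 and Zbtb46 7 and 10, against 6027 to 13139 and 1098 to 1538 in CD11b- dendritic cells. The dendritic cell markers Ccr7 and Clec9a were at 0 in both stromal libraries, and no macrophage marker was at 0 in any population. Markers of epithelium were detected in all 10 libraries, with summed levels of 286 to 2640 CPM. B cell markers summed to 280 CPM in CD103- replicate 2 and to 5.44 to 34.5 in the other libraries. Endothelial markers summed to 139 to 571 CPM in CD11b- and to 65.9 and 94.6 in CD11b+ dendritic cells. Adipocyte markers summed to 218 to 502 and to 77.9 and 92.8 there, while epithelial sums overlapped. The part of these cells in the comparisons below was not tested. These are bulk libraries, so a difference in the share of a contaminating cell type and a difference in RNA per cell cannot be told apart. A gene was called when its Benjamini-Hochberg adjusted p was under 0.05 in edgeR's quasi-likelihood test across all 15681 genes, and every adjusted p below is from that test unless another is named. The labels do not say whether the replicates came from separate animals, so p-values measure the spread between these libraries. Gene positions are those of RefSeq on GRCm38.p6, the assembly that mm10 names.

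Of the 31 genes, 22 (71.0%) were called in the test of any difference among the 5 populations, where 50.4% of all tested genes were. The mean level was highest in ductal macrophages for 13 genes, in CD11b+ dendritic cells for 11, in stromal macrophages for 3 and in each CD11b- population for 2. The 22 and the 3 each include Fbp1, which passed the low-count filter only through the stromal macrophages and is not read as a result. The ratio of the highest to the lowest population mean was 61.1 for Slc2a6, 29.6 for Slc16a3, 22.3 for Pfkp, 17.9 for Ldhb, 7.14 for Pfkfb3 and 5.93 for Pgd. The genes with the widest spread were thus mostly single isozymes or carriers of a family. At the other end, Gpi1, the isomerase between the hexokinase and phosphofructokinase steps, differed by a ratio of 1.38 between its highest and lowest mean.

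**Figure D1:**
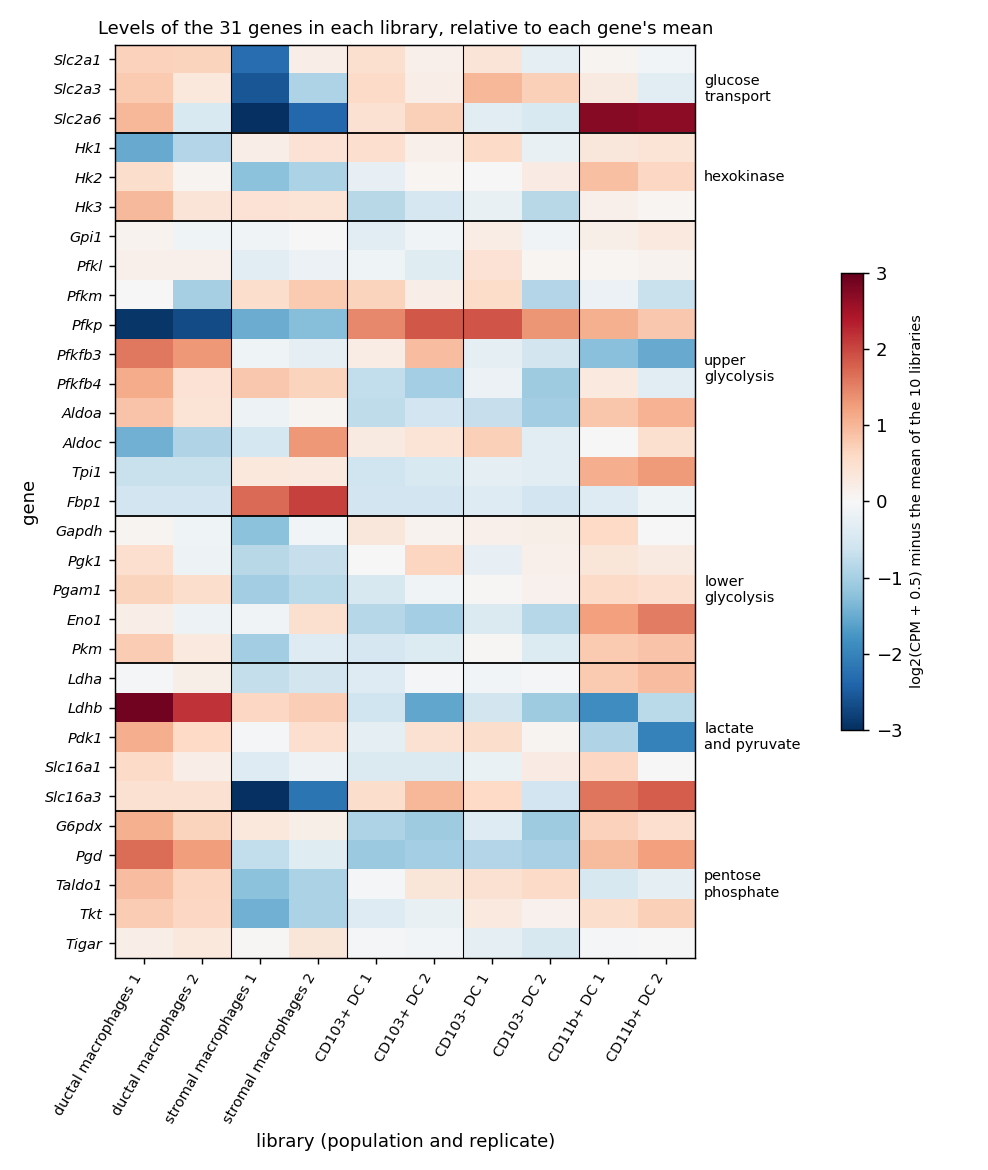
Level of each of the 31 genes (rows, ordered by step) in each of the 10 libraries (columns, 2 per population), as log2(CPM + 0.5) minus the gene's mean over the libraries, with red above and blue below that mean. Pfkp is low in both ductal libraries, Slc2a6 and Slc16a3 are low in both stromal libraries, and the pentose phosphate genes G6pdx and Pgd are high in ductal macrophages and CD11b+ dendritic cells.

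Ductal macrophages differed from stromal macrophages in 16 of the 31 genes: 11 were higher (16.3% of all tested genes were called so) and 5 lower (14.3%), or 51.6% in either direction against 30.6% of all genes. The median log2 fold change of the 31 was 0.67, against -0.10 over all tested genes. The 11 higher genes were Slc2a3, Slc2a6, Hk2, Pfkfb3, Pgam1, Pkm, Ldhb, Slc16a3, Pgd, Taldo1 and Tkt, and the 5 lower ones were Hk1, Pfkp, Aldoc, Tpi1 and Fbp1. Of these 16 calls, 10 held in all 15 alternative analyses, namely Slc2a6, Hk2, Pfkfb3, Pgam1, Slc16a3, Pgd, Taldo1 and Tkt on the higher side and Pfkp and Tpi1 on the lower. Without ductal replicate 1, the adjusted p was 0.0716 for Slc2a3, 0.0657 for Hk1, 0.189 for Aldoc, 0.0883 for Pkm and 0.153 for Ldhb; the call of Fbp1, which passed the filter only through the stromal libraries, is not read as a result. Beside this comparison, 10 of 13 genes known to be induced by tissue dissociation were lower in ductal macrophages, with sums of 11500 and 11400 CPM against 37800 and 27300 in stromal macrophages. Summed levels of epithelial markers were 286 and 562 CPM in ductal against 1120 and 2640 in stromal macrophages, those of adipocyte markers 44.0 and 137 against 265 and 512, and those of mast cell markers 33.9 and 29.5 against 183 and 157; the adipocyte marker Plin1 was at 0 in both ductal libraries. The mast cell sums include Kit, also used as a dendritic cell marker, with 146 and 134 counts in ductal and 373 and 1710 in stromal macrophages. The mast cell markers Cpa3, Mcpt4, Tpsb2 and Cma1 had 0 to 8 counts in ductal and 101 to 1117 in stromal libraries. The part of these genes in the result was not tested.

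Against the mean of the 3 dendritic cell populations, ductal macrophages were higher in 9 of the 31 genes (15.0% of all tested genes were called so) and lower in 4 (11.6%), or 41.9% in either direction against 26.6% of all genes. Stromal macrophages were higher in 5 (20.3% of all tested genes) and lower in 10 (18.2%), or 48.4% in either direction against 38.4%. Fbp1 is among these 5 and is not read as a result. The median log2 fold change of the 31 was 0.15 for ductal macrophages, against -0.09 over all tested genes, and -0.24 for stromal macrophages, against 0.03. Of the 13 dissociation genes, 10 were higher and 1 lower in stromal macrophages than in dendritic cells, and 0 were higher and 6 lower in ductal macrophages; their part was not tested here either. Both comparisons use the same dendritic cell libraries, so their values are given side by side and not correlated. Within the dendritic cells, CD11b+ differed from CD11b- cells in 14 genes, 11 higher (14.0% of all tested genes) and 3 lower (11.0%), or 45.2% in either direction against 25.1% of all genes, with a median log2 fold change of 0.56 against -0.07 over all genes. Between CD103+ and CD103- dendritic cells, edgeR called 0 of the 31 genes and 5 of all tested genes, all higher (0.0319% higher and 0.00% lower). At an unadjusted p under 0.05, 2 of the 31 and 1000 of all genes passed there, and DESeq2 called 1 of the 31, Pfkfb3.

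**Figure D2:**
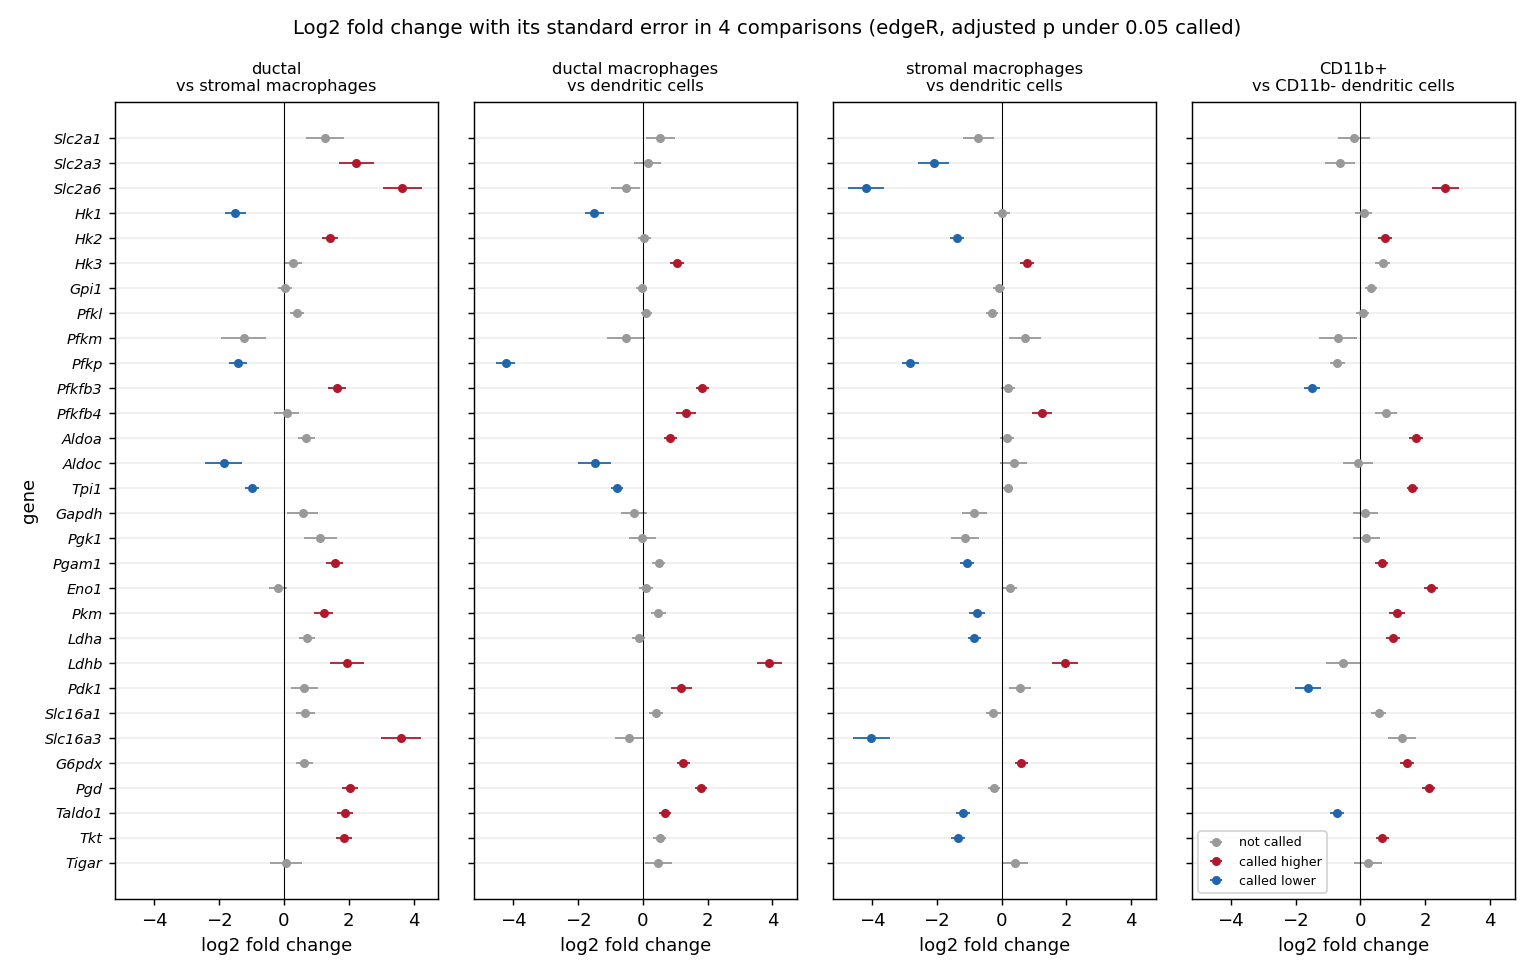
Log2 fold change of 30 genes in 4 comparisons, with bars of 1 standard error; red points were called higher, blue points lower and grey points were not called (edgeR, adjusted p under 0.05). Fbp1 is left out because it had 0 counts in several libraries; the 11 red points of the leftmost panel include Slc2a6, Slc16a3 and 3 pentose phosphate genes.

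Glucose entry was represented by Slc2a1 and Slc2a3, which encode the plasma membrane carriers GLUT1 and GLUT3, and Slc2a6, which encodes GLUT6, a carrier described on lysosomes of macrophages. Slc2a6 (Entrez 227659, chr2:27021363-27028000) was at 146 and 141 CPM in CD11b+ dendritic cells, 43.7 and 15.7 in ductal macrophages, 0.883 and 3.81 in stromal macrophages, 29.97 and 35.9 in CD103+ and 17.2 and 15.7 in CD103- dendritic cells. Both CD11b+ libraries were above all other libraries and both stromal libraries below them, while the 2 ductal libraries spanned the range of the CD11b- cells. Its log2 fold change was 2.62 ± 0.42 (SE) between CD11b+ and CD11b- dendritic cells (adjusted p = 0.00118) and -4.19 ± 0.56 between stromal macrophages and dendritic cells (adjusted p = 0.000207). Between ductal and stromal macrophages the log2 fold change was 3.66 ± 0.60 (adjusted p = 0.00103).

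Slc2a3 was at 18.5 and 13.2 CPM in ductal macrophages, 1.38 and 5.31 in stromal macrophages, 15.9 and 12.1 in CD103+, 21.5 and 17.5 in CD103- and 12.8 and 8.26 in CD11b+ dendritic cells. The stromal libraries were again the lowest of the 10, with a log2 fold change of -2.09 ± 0.48 against dendritic cells (adjusted p = 0.00586) and of 2.24 ± 0.55 for ductal over stromal macrophages (adjusted p = 0.0104). Without ductal replicate 1, the latter comparison gave an adjusted p of 0.0716. Slc2a1 was not called in any comparison (adjusted p = 0.398 among the 5 populations) with the low-count filter, and its 2 stromal libraries were far apart, at 9.99 and 57.9 CPM, with the other 8 at 41.8 to 82.2. Without stromal replicate 2, Slc2a1 was called higher in ductal than in stromal macrophages (log2 fold change 3.03, adjusted p = 0.000162) and lower in stromal macrophages than in dendritic cells (-2.48, adjusted p = 0.000245). With all libraries but no low-count filter, it was called higher in ductal than in stromal macrophages (1.26, adjusted p = 0.0268).

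The stromal replicates also differed in Slc2a3, Slc2a6 and Slc16a3, each lower in replicate 1. Epithelial markers summed to 1120 CPM in stromal replicate 1 and 2640 in replicate 2, adipocyte markers to 265 and 512, and fibroblast markers to 1170 and 1600; their part in these levels was not tested. Per length, Slc2a1 made up 83.6% and 87.8% of the RNA of these 3 transporters in stromal macrophages, and Slc2a6 made up 74.0% and 76.0% in CD11b+ dendritic cells. Slc2a6 took 6.96% to 40.3% in the other 8 libraries, so the make-up of the 3 transporters in CD11b+ cells lay outside their range.

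Hexokinases trap glucose in the cell as glucose 6-phosphate, and the 3 genes measured here showed 3 different orders of the populations. Hk1, the broadly expressed isozyme that binds mitochondria, was at 15.7 and 24.6 CPM in ductal macrophages, 52.5 and 61.8 in stromal macrophages, 65.2 and 50.5 in CD103+, 67.8 and 39.1 in CD103- and 58.3 and 60.7 in CD11b+ dendritic cells. Both ductal libraries were below all others. On the log2 scale they were at -1.50 ± 0.32 against stromal macrophages (adjusted p = 0.00523) and -1.49 ± 0.28 against dendritic cells (adjusted p = 0.0025); without ductal replicate 1 these became adjusted p = 0.0657 and 0.0593.

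Hk2, the inducible isozyme, was at 61.3 and 45.2 CPM in ductal macrophages, 17.9 and 21.7 in stromal macrophages, 35.7 and 44.6 in CD103+, 42.4 and 50.4 in CD103- and 79.4 and 66.1 in CD11b+ dendritic cells. Stromal macrophages were lowest, with a log2 fold change of -1.38 ± 0.22 against dendritic cells (adjusted p = 0.000715) and 1.42 ± 0.26 for ductal over stromal (adjusted p = 0.00195), both held in all 15 alternatives. Hk2 was also higher in CD11b+ than in CD11b- dendritic cells (0.75 ± 0.21, adjusted p = 0.0237), a call lost without CD11b+ replicate 1 (adjusted p = 0.225), CD11b+ replicate 2 (0.0724), CD103+ replicate 1 (0.0792) or CD103- replicate 1 (0.0665).

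Hk3, an isozyme known mainly from myeloid cells, was at 98.9 and 66.4 CPM in ductal macrophages, 68.1 and 66.8 in stromal macrophages, 27.9 and 35.7 in CD103+, 43.2 and 28.0 in CD103- and 55.9 and 52.4 in CD11b+ dendritic cells. All 4 macrophage libraries were above all 6 dendritic cell libraries. The log2 fold change against dendritic cells was 1.06 ± 0.22 in ductal macrophages (adjusted p = 0.00392; 0.126 without ductal replicate 1) and 0.77 ± 0.22 in stromal macrophages (adjusted p = 0.0162; 0.0887 without stromal replicate 1 and 0.0526 without stromal replicate 2). Per length, Hk3 was 53.7% to 67.4% of the 3 hexokinases in macrophages and 29.0% to 38.7% in dendritic cells, whereas Hk1 was 7.77% and 16.1% in ductal macrophages and 29.1% to 49.0% in the other 8 libraries.

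**Figure D3:**
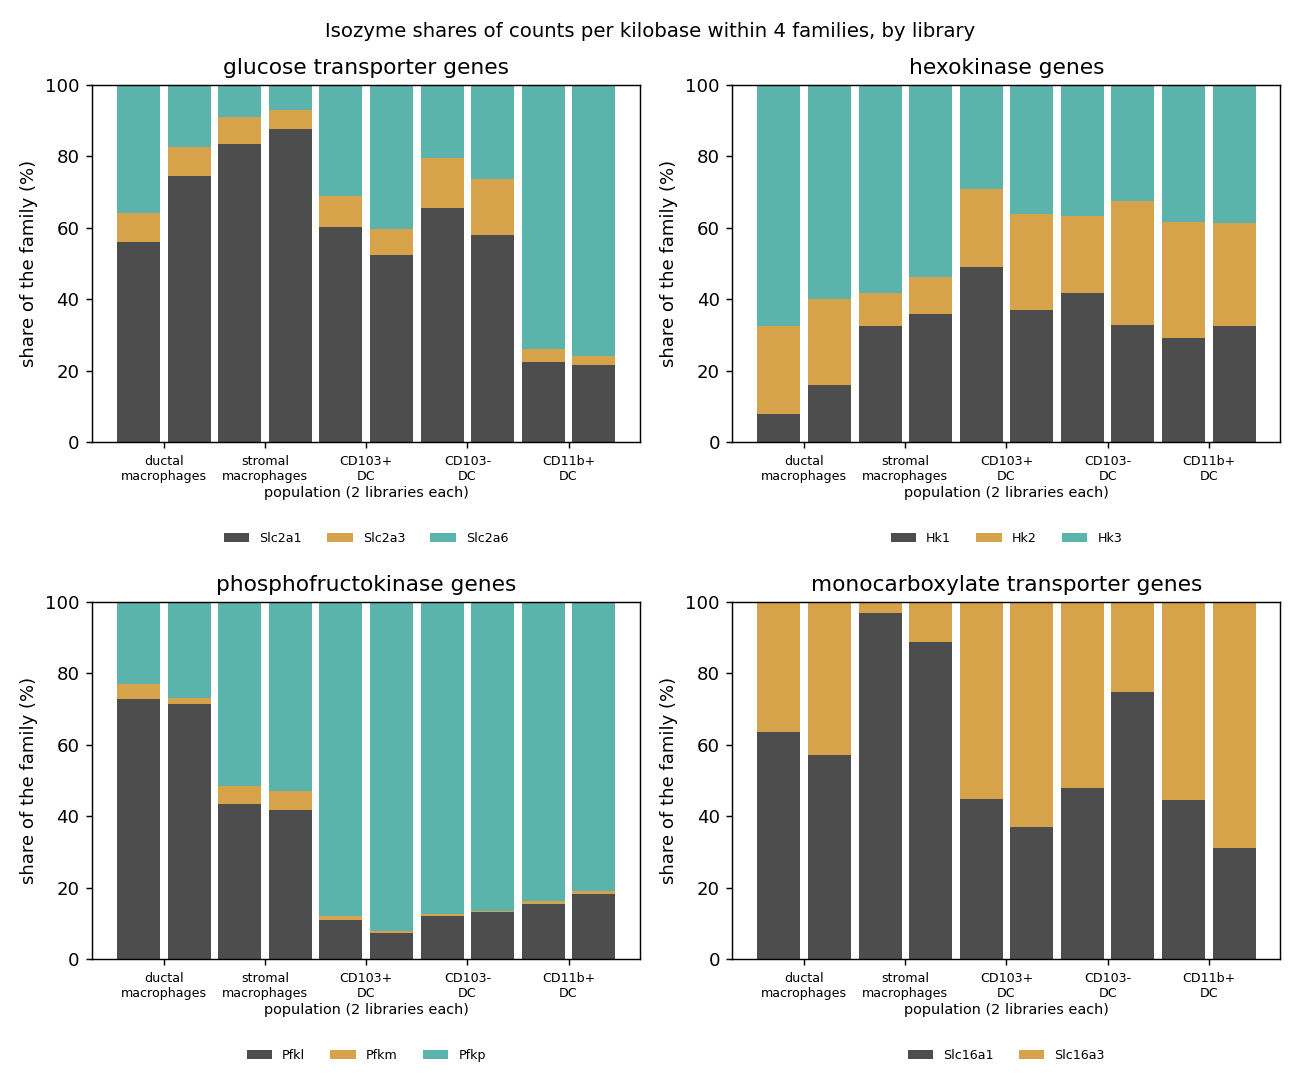
Share of each gene in the summed counts per kilobase of 4 families (y axis, %), with 1 bar per library and 2 bars per population. Slc2a6 fills 74.0% and 76.0% of the bars of CD11b+ dendritic cells, Pfkp falls from 81.1% or more in dendritic cells to 23.2% and 26.9% in ductal macrophages, and Slc16a3 is smallest in stromal macrophages, at 3.19% and 11.4%.

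Phosphofructokinase commits fructose 6-phosphate to glycolysis, and its platelet-type subunit Pfkp had one of the widest ranges of the 31 genes. Pfkp (Entrez 56421, chr13:6579874-6649060) was at 23.9 and 28.4 CPM in ductal macrophages, 64.7 and 74.9 in stromal macrophages, 503 and 665 in CD103+, 676 and 464 in CD103- and 383 and 323 in CD11b+ dendritic cells. The libraries fell into 4 levels without overlap, from ductal macrophages through stromal macrophages and CD11b+ dendritic cells to both CD11b- populations. The log2 fold change against dendritic cells was -4.22 ± 0.29 in ductal macrophages (adjusted p = 1.84e-06) and -2.81 ± 0.26 in stromal macrophages (adjusted p = 1.62e-05), and ductal were lower than stromal macrophages (-1.42 ± 0.28, adjusted p = 0.00344). These 3 calls held in all 15 alternatives. For CD11b+ against CD11b- cells the log2 fold change was -0.71 ± 0.24 (adjusted p = 0.0512), which was called under some alternatives, among them relative log expression scaling (0.0449) and DESeq2 (0.0101).

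Pfkl, the liver-type subunit, stayed between 49.1 and 86.0 CPM in the 10 libraries and was not called (adjusted p = 0.168 among the 5 populations). The ductal minus stromal difference in Pfkl had a 95% interval of -0.08 to 0.89 on the log2 scale. The ratio of Pfkp to Pfkl per length was therefore 0.318 and 0.377 in ductal macrophages, 1.20 and 1.26 in stromal macrophages and 4.44 to 12.7 in dendritic cells. Pfkl was 72.8% and 71.4% of the 3 phosphofructokinase genes in ductal macrophages, and Pfkp was 81.1% to 92.0% in dendritic cells. Pfkm, the muscle-type subunit, was at 1.32 to 5.77 CPM and was not called. Of the 80-base windows of the Pfkp transcript, 16.5% are shared with the neighbouring gene Pitrm1, so part of its reads may be ambiguous between the 2.

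Pfkfb3 and Pfkfb4 encode bifunctional enzymes that set fructose 2,6-bisphosphate, the activator of phosphofructokinase. Pfkfb3 (Entrez 170768, chr2:11471430-11554071) was at 384 and 318 CPM in ductal macrophages, 118 and 106 in stromal macrophages, 151 and 246 in CD103+, 104 and 88.2 in CD103- and 53.8 and 44.7 in CD11b+ dendritic cells. Both ductal libraries were the highest of the 10 and both CD11b+ libraries the lowest. Fold changes on the log2 scale were 1.65 ± 0.28 for ductal over stromal macrophages (adjusted p = 0.00122), 1.84 ± 0.20 over dendritic cells (adjusted p = 5.78e-05) and -1.48 ± 0.25 for CD11b+ against CD11b- dendritic cells (adjusted p = 0.00166), and these calls held in all 15 alternatives. Between CD103+ and CD103- cells it was 1.04 ± 0.27, with adjusted p = 0.326 in edgeR and 0.0204 in DESeq2.

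Pfkfb4 was at 17.6 and 28.5 CPM in ductal and 20.6 and 22.7 in stromal macrophages, against 5.83 to 15.9 in dendritic cells. It was called higher than in dendritic cells in both macrophage populations (1.33 ± 0.31, adjusted p = 0.00857, in ductal; 1.24 ± 0.30, adjusted p = 0.00781, in stromal). Leaving out replicate 1 of either macrophage population ended that population's call (adjusted p = 0.196 without ductal and 0.0542 without stromal replicate 1).

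Aldolase and triose phosphate isomerase split the sugar into 2 interconvertible trioses, and in CD11b+ dendritic cells both Aldoa and Tpi1 were high. Aldoa was at 703 and 810 CPM in CD11b+ dendritic cells and 190 to 267 in CD11b- cells (log2 fold change 1.70 ± 0.22, adjusted p = 0.000271). Tpi1 was at 361 and 406 CPM in CD11b+ and 111 to 138 in CD11b- dendritic cells (1.60 ± 0.17, adjusted p = 8.25e-05), so both CD11b+ libraries were above the other 8 for Tpi1. Against the mean of the 3 dendritic cell populations, these consecutive enzymes differed in opposite directions in ductal macrophages. The directions were not the same against each population, which was not tested separately. Both means were below those of CD11b+ cells. Relative to CD11b- cells, Aldoa was higher and Tpi1 slightly lower in ductal macrophages. Aldoa was at 719.8 and 526 CPM and was higher than in dendritic cells (0.85 ± 0.20, adjusted p = 0.00958; 0.202 without ductal replicate 1). Tpi1 was at 105 and 107 CPM and was lower than in stromal macrophages (209 and 208 CPM; -0.98 ± 0.21, adjusted p = 0.00514) and than in dendritic cells (-0.79 ± 0.18, adjusted p = 0.00684). The latter call was lost without ductal replicate 1 (adjusted p = 0.0877) or replicate 2 (0.0639).

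Aldoc, the brain-type aldolase, was lowest in ductal macrophages, at 6.83 and 10.02 CPM. It was at 13.3 and 48.0 in stromal macrophages and 15.4 to 31.9 in dendritic cells, and its calls against stromal macrophages (-1.85 ± 0.57, adjusted p = 0.0302) and dendritic cells (-1.48 ± 0.50, adjusted p = 0.049) did not hold in the alternatives. Against stromal macrophages, the adjusted p was 0.189 without ductal replicate 1, 0.0871 without ductal replicate 2 and 0.311 without stromal replicate 2, where the log2 fold change was -0.65. Against dendritic cells, it ranged up to 0.322, without ductal replicate 1.

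Fbp1 encodes fructose 1,6-bisphosphatase, which runs the phosphofructokinase step in reverse. It had 35 and 45 counts in stromal macrophages (1.93 and 2.60 CPM), 0 in both ductal libraries, and 3 counts in all over the 6 dendritic cell libraries. The pooled stromal level, 2.26 CPM, was 7.28 times a level of 3 counts over both ductal libraries (0.310 CPM), the floor that a count of 0 allows. Only the ductal side is bounded so, and the stromal spread is left out, so the ratio is not a lower bound. Because Fbp1 passed the low-count filter only through the stromal libraries, its calls are not read as a result. Gpi1, at 106 to 165 CPM in all 10 libraries, was not called, and the 95% interval of its ductal minus stromal difference was -0.45 to 0.53 on the log2 scale.

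The later steps of glycolysis, from glyceraldehyde 3-phosphate to pyruvate, yields its ATP. Gapdh, often used as an abundant reference gene, was at 7.74 and 6.62 CPM in ductal macrophages, 2.82 and 6.81 in stromal macrophages, 9.21 and 7.80 in CD103+, 8.08 and 8.19 in CD103- and 11.1 and 7.18 in CD11b+ dendritic cells. Per length its mean was 3.91 to 7.44 RPKM, while the mean of Tpi1, the step before it, was 66.2 to 240 RPKM, and the ratio of Gapdh to Tpi1 per length was 0.0175 to 0.108 in single libraries. Pgk1, the next enzyme, was at 2.04 to 6.65 CPM. Gapdh was not called (adjusted p = 0.416 among the 5 populations), nor was Pgk1 (0.206), except that Pgk1 was lower in stromal macrophages than in dendritic cells in DESeq2 (adjusted p = 0.0213) and under relative log expression scaling (0.0476). Without stromal replicate 2, Gapdh was called lower in stromal macrophages than in dendritic cells (-1.61, adjusted p = 0.0163).

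Both genes share long stretches with other genes of the mouse, many for Gapdh and 4 annotated pseudogenes for Pgk1. Of the 80-base windows of the Gapdh transcript, the length of 1 read, 79.9% occur exactly in a transcript of another gene in GENCODE M21, spread over 111 genes of which 106 are annotated pseudogenes. The share was 67.4% for Pgk1, 64.1% for Eno1, 40.4% for Pgam1, 17% for Pkm and 15.2% for Ldhb, and 4.09% or less for Ldha, Tpi1, Aldoa and the 5 pentose phosphate genes. The labels and processing notes do not say how reads that match several genes were counted. The levels of Gapdh, Pgk1, Eno1 and Pgam1 are therefore uncertain, and the ratio of Gapdh to Tpi1 is one of the reads as counted.

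**Figure D4:**
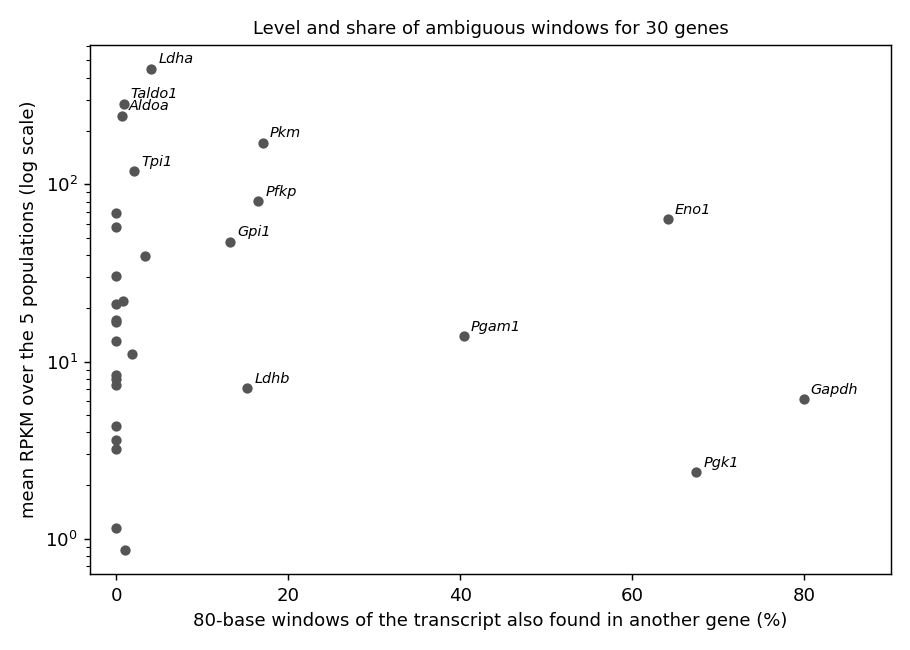
Share of each gene's 80-base transcript windows that also occur in another gene (x axis, %) against its mean level over the 5 populations (y axis, RPKM, log scale), for 30 genes, without Fbp1. Gapdh and Pgk1 sit at the lower right, with 79.9% and 67.4% of windows shared, whereas Ldha, Taldo1 and Aldoa sit at the upper left.

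Eno1, the main enolase, was at 109 and 84.4 CPM in ductal macrophages, 87.4 and 131 in stromal macrophages, 51.5 and 46.2 in CD103+, 69.7 and 52.0 in CD103- and 221 and 273 in CD11b+ dendritic cells. Both CD11b+ libraries were the highest, with a log2 fold change of 2.18 ± 0.22 over CD11b- cells (adjusted p = 6.29e-05) that held in all 15 alternatives. The near-identical Eno1b was counted separately and held 0.337 to 0.481 of the Eno1 level per length in every library. Pgam1, phosphoglycerate mutase, was at 37.8 and 34.2 CPM in ductal macrophages, 11.1 and 13.2 in stromal macrophages, 16.7 and 21.9 in CD103+, 24.2 and 25.9 in CD103- and 35.3 and 33.7 in CD11b+ dendritic cells. Stromal macrophages were the lowest, at 1.57 ± 0.26 below ductal macrophages on the log2 scale (adjusted p = 0.00105) and at a log2 fold change of -1.08 ± 0.22 against dendritic cells (adjusted p = 0.00281). The call of Pgam1 between CD11b+ and CD11b- cells (0.65 ± 0.21, adjusted p = 0.0429) was lost in most alternatives, with an adjusted p of up to 0.233 (0.0561 with the replicate block and 0.0863 without the low-count filter).

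Pkm encodes pyruvate kinase M, which makes pyruvate and the pathway's last ATP. It was at 688 and 505 CPM in ductal macrophages, 198 and 309.9 in stromal macrophages, 289 and 309 in CD103+, 421 and 309.5 in CD103- and 707 and 737 in CD11b+ dendritic cells. Ductal macrophages and CD11b+ dendritic cells were above the other 3 populations without overlap. Its log2 fold change was 1.23 ± 0.29 for ductal over stromal macrophages (adjusted p = 0.00939; 0.0883 without ductal and 0.0533 without stromal replicate 1) and 1.13 ± 0.24 for CD11b+ over CD11b- dendritic cells (adjusted p = 0.00659; 0.058 without CD11b+ replicate 2). Stromal macrophages were called lower than dendritic cells (-0.76 ± 0.25, adjusted p = 0.0327; 0.19 without stromal replicate 1 and 0.0513 with the replicate block).

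At the end of glycolysis, lactate dehydrogenase interconverts pyruvate and lactate: the A subunit (Ldha) favours lactate and the B subunit (Ldhb) favours pyruvate. Monocarboxylate carriers then move lactate across the membrane, MCT1 (Slc16a1) in either direction and MCT4 (Slc16a3) mainly outward. Because each pair held 1 member that differed between populations more than the other, their promoters are shown. These are bases before an annotated start site, from RefSeq on GRCm38.p6, 5′ to 3′ on the gene's strand. Where a gene had several windows, the first listed was taken. Those of Ldha and Slc16a3 lie inside the gene's span, which begins at chr7:46842274 and chr11:120948484. Capitals mark ACGTG on either strand, the core letters of the hypoxia response element, which are also contained in the E-box CACGTG; the motif was chosen after the values were seen. The windows lie at chr7:46845554-46845803 (+) for Ldha, chr6:142507958-142508207 (-) for Ldhb, chr3:104638414-104638663 (+) for Slc16a1 and chr11:120948817-120949052 (+) for Slc16a3, the last cut to 236 bases where an annotated exon begins.
Ldha: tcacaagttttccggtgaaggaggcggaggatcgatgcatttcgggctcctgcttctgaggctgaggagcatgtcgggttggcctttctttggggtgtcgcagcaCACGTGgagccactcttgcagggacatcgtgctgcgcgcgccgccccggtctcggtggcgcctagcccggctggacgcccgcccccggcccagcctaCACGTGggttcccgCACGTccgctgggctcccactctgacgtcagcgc
Ldhb: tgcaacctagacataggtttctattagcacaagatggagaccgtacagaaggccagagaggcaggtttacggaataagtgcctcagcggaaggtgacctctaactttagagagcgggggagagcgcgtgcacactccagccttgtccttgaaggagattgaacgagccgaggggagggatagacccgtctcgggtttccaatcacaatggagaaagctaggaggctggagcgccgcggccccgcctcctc
Slc16a1: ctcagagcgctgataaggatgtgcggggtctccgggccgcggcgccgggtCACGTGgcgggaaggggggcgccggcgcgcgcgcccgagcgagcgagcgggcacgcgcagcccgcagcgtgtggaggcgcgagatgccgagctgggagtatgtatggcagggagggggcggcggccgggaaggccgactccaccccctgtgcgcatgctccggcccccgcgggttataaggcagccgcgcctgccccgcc
Slc16a3: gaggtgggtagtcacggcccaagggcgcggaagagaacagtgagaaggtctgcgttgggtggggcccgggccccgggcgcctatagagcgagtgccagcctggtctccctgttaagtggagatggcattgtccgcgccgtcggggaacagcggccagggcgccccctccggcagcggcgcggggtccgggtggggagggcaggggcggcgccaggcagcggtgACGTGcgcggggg
The printed stretch held 3 runs of capitals for Ldha, 1 for Slc16a1, 1 for Slc16a3 and 0 for Ldhb. Over windows from 250 bases before to 50 after a start, 19 of 44 windows of 30 matched members (43.2%) held the motif, against 6447 of 32851 windows of all genes (19.6%). The median GC content was 60.8% in the members' windows and 52.7% in all windows, and a part of base composition in that difference was not tested. A match is a description of letters and not a bound site.

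Leaving aside Gapdh, Pgk1, Eno1 and Pgam1, whose levels are uncertain, Ldha had the highest mean of the genes per length in 4 of the 5 populations, at 766 RPKM in CD11b+, 364 in CD103+ and 403 in CD103- dendritic cells and 270.4 in stromal macrophages. In ductal macrophages Ldha (443 RPKM) and the transaldolase gene Taldo1 (446 RPKM) were at like levels, within the SD of both (45.7 and 59.6, n = 2). In CPM, Ldha was at 793 and 918 in ductal macrophages, 492 and 552 in stromal macrophages, 626 to 791 in CD11b- and 1408 and 1550.3 in CD11b+ dendritic cells. The CD11b+ libraries were the highest and the stromal libraries the lowest, with log2 fold changes of 1.00 ± 0.21 for CD11b+ over CD11b- cells (adjusted p = 0.00548; 0.0575 without CD11b+ replicate 2) and -0.84 ± 0.21 for stromal macrophages against dendritic cells (adjusted p = 0.0102; 0.0554 without stromal replicate 1). Ductal over stromal macrophages was 0.71 ± 0.25 (adjusted p = 0.0508), which DESeq2 called (adjusted p = 0.00161).

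Ldhb (Entrez 16832, chr6:142490249-142507957) was at 39.0 and 23.3 CPM in ductal macrophages, 7.67 and 8.31 in stromal macrophages, 2.98 and 1.31 in CD103+, 3.11 and 2.04 in CD103- and 0.963 and 2.51 in CD11b+ dendritic cells. Both ductal libraries were above both stromal libraries, and these above all 6 dendritic cell libraries, the reverse of the order of these groups for Pfkp. The log2 fold change against dendritic cells was 3.91 ± 0.39 in ductal macrophages (adjusted p = 2.82e-05) and 1.95 ± 0.40 in stromal macrophages (adjusted p = 0.00311), both held in all 15 alternatives. Ductal were higher than stromal macrophages by 1.96 ± 0.52 (adjusted p = 0.0166; 0.153 without ductal and 0.0524 without stromal replicate 1). Ldhb still made up only 6.85% and 3.65% of the 2 lactate dehydrogenase genes per length in ductal macrophages, 2.28% and 2.2% in stromal macrophages and 0.102% to 0.707% in dendritic cells.

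Slc16a3 (Entrez 80879, chr11:120948484-120959000) was at 17.1 and 17.2 CPM in ductal macrophages, 0.497 and 2.31 in stromal macrophages, 17.9 and 25.0 in CD103+, 18.8 and 8.05 in CD103- and 38.4 and 44.7 in CD11b+ dendritic cells. Stromal macrophages were the lowest and CD11b+ dendritic cells the highest, as for Slc2a6, the carrier described on lysosomes. The log2 fold change was -4.03 ± 0.57 for stromal macrophages against dendritic cells (adjusted p = 0.000311) and 3.61 ± 0.61 for ductal over stromal macrophages (adjusted p = 0.00133), and both held in all 15 alternatives. For CD11b+ over CD11b- cells it was 1.29 ± 0.43 (adjusted p = 0.0509), and 0.028 in DESeq2. Slc16a1 was at 25.1 to 52.6 CPM and was not called (adjusted p = 0.0802 among the 5 populations), so that it made up 96.8% and 88.6% of the pair per length in stromal macrophages and 31.1% to 74.6% in the other 8 libraries.

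Pdk1 encodes a kinase that inactivates pyruvate dehydrogenase and so keeps pyruvate out of the mitochondrial cycle. It was at 35.1 and 24.6 CPM in ductal macrophages, 15.6 and 22.9 in stromal macrophages, 13.1 and 22.2 in CD103+, 23.5 and 17.1 in CD103- and 8.32 and 3.59 in CD11b+ dendritic cells. CD11b+ cells were the lowest, with a log2 fold change of -1.61 ± 0.40 against CD11b- cells (adjusted p = 0.0139; 0.144 without CD11b+ replicate 2). Ductal macrophages were higher than dendritic cells (1.19 ± 0.33, adjusted p = 0.021; 0.259 without ductal replicate 1). In CD11b+ dendritic cells Pdk1 and Pfkfb3 were thus lower while Slc2a6, Aldoa, Tpi1, Eno1, Pkm and Ldha were higher than in CD11b- cells.

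In the pentose phosphate pathway, 4 of the 5 genes were called among the 5 populations, where 50.4% of all tested genes were. The oxidative arm was represented by G6pdx, the entry enzyme, and Pgd, which makes the second NADPH. G6pdx (Entrez 14381, chrX:74409483-74428880) was at 191 and 144 CPM in ductal macrophages, 113 and 102 in stromal macrophages, 47.8 and 43.2 in CD103+, 69.5 and 42.7 in CD103- and 146 and 129 in CD11b+ dendritic cells. The CD11b- dendritic cells were the lowest 4 libraries, and ductal macrophages overlapped CD11b+ cells. Its log2 fold change was 1.25 ± 0.21 for ductal macrophages over dendritic cells (adjusted p = 0.000962) and 1.44 ± 0.22 for CD11b+ over CD11b- dendritic cells (adjusted p = 0.000929), and both held in all 15 alternatives. Ductal minus stromal was 0.64 ± 0.27 (adjusted p = 0.0939, 95% interval 0.05 to 1.22). Stromal macrophages were called higher than dendritic cells (0.61 ± 0.21, adjusted p = 0.0388), but 8 of the 15 alternatives lost that call. Among them were relative log expression scaling (adjusted p = 0.0548) and leaving out either stromal library. The log2 fold change was 0.46 without stromal replicate 1 and 0.69 without replicate 2.

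Pgd (Entrez 110208, chr4:149149991-149166705) was at 311 and 231 CPM in ductal macrophages, 58.2 and 74.6 in stromal macrophages, 44.3 and 47.1 in CD103+, 52.3 and 48.8 in CD103- and 187 and 227 in CD11b+ dendritic cells. Ductal macrophages and CD11b+ dendritic cells were above the other 6 libraries by a wide gap, and both ductal libraries were above both CD11b+ libraries. Its log2 fold change was 2.03 ± 0.25 for ductal over stromal macrophages (adjusted p = 0.00015), 1.79 ± 0.18 for ductal macrophages over dendritic cells (adjusted p = 2.84e-05) and 2.1 ± 0.20 for CD11b+ over CD11b- dendritic cells (adjusted p = 3.45e-05). Each of these 3 calls held in all 15 alternatives. Stromal macrophages did not pass the test against dendritic cells (-0.23 ± 0.20, adjusted p = 0.376).

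The non-oxidative arm showed another order. Taldo1, transaldolase (Entrez 21351, chr7:141392160-141402976), was at 623 and 515 CPM in ductal macrophages, 139 and 170.2 in stromal macrophages, 321 and 423 in CD103+, 452 and 489.9 in CD103- and 234 and 272 in CD11b+ dendritic cells. Ductal macrophages were the highest and stromal macrophages the lowest of the 10 libraries (1.88 ± 0.26, adjusted p = 0.000323). Stromal macrophages were also lower than dendritic cells (-1.20 ± 0.22, adjusted p = 0.00158), and both calls held in all 15 alternatives. CD11b+ cells were below the CD11b- cells (-0.73 ± 0.22, adjusted p = 0.0349). That call was lost in 7 of the 15 alternatives, among them those without either CD11b+ library or either ductal library. The log2 fold change was -0.63 without CD11b+ replicate 1 and -0.83 without replicate 2. Ductal macrophages were called higher than dendritic cells (0.69 ± 0.20, adjusted p = 0.0239; 0.265 and 0.0645 without ductal replicates 1 and 2, and 0.0627 without CD11b+ replicate 1).

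Tkt, transketolase, was at 336 and 304 CPM in ductal macrophages, 72.5 and 102.7 in stromal macrophages, 150.4 to 244 in CD11b- and 284 and 325 in CD11b+ dendritic cells. Stromal macrophages were lowest again, at -1.35 ± 0.21 against dendritic cells (adjusted p = 0.000612) and 1.87 ± 0.25 below ductal macrophages (adjusted p = 0.000264), and both calls held in all 15 alternatives. Tkt was called higher in CD11b+ than in CD11b- cells (0.67 ± 0.20, adjusted p = 0.0335), but 8 of the 15 alternatives lost that call. The log2 fold change was 0.76 without CD11b+ replicate 1 and 0.58 without replicate 2. Tigar, which lowers fructose 2,6-bisphosphate, was at 2.08 to 4.10 CPM and was not called in any comparison; its ductal minus stromal difference had a 95% interval of -1.05 to 1.17 on the log2 scale.

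**Figure D5:**
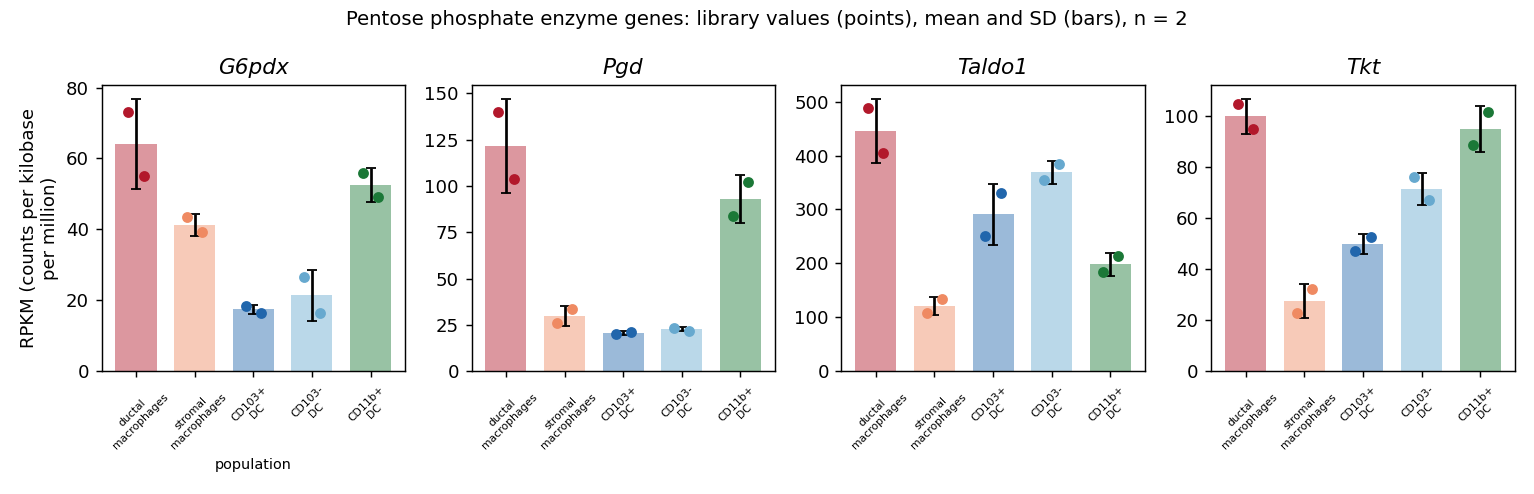
RPKM (y axis) of G6pdx, Pgd, Taldo1 and Tkt in the 5 populations; bars show the mean of 2 libraries, error bars the SD and points the libraries. Pgd is at 122 and 93.0 RPKM in ductal macrophages and CD11b+ dendritic cells and at 20.5 to 29.9 in the other 3 populations, while Taldo1 is lowest in stromal macrophages, at 121 RPKM.

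Ratios of an oxidative to a non-oxidative gene per length were lowest in the 4 CD11b- dendritic cell libraries for all 4 pairs. The ratio of Pgd to Taldo1 was 0.0572 to 0.0792 there, 0.240 to 0.286 in macrophages and 0.458 and 0.479 in CD11b+ dendritic cells. Other pairs ordered the remaining populations differently. G6pdx to Taldo1 was 0.399 and 0.293 in stromal macrophages, 0.150 and 0.136 in ductal macrophages, 0.305 and 0.231 in CD11b+ and 0.0426 to 0.0750 in CD11b- dendritic cells. Pgd to Tkt was 1.05 to 1.33 in macrophages, 0.947 and 1.01 in CD11b+ and 0.309 to 0.424 in CD11b- dendritic cells, and G6pdx to Tkt was highest in stromal macrophages, at 1.92 and 1.22. These ratios were chosen after the values were seen and were not tested.

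Read across the steps, both ductal libraries were above the other 8 for 6 of the 31 genes (12.2% of all tested genes were so placed) and below them for 4 (9.88%). Those above were Slc2a1, Pfkfb3, Ldhb, Pdk1, Pgd and Taldo1, and those below were Hk1, Pfkp, Aldoc and Tpi1. Both stromal libraries were above the rest for 1 gene, Fbp1 (13.6% of all genes), and below for 9 (12.0%), namely Slc2a3, Slc2a6, Hk2, Pgk1, Pgam1, Ldha, Slc16a3, Taldo1 and Tkt. The place of Fbp1 is not read as a result, because it passed the low-count filter only through the stromal libraries. Both CD11b+ libraries were above the rest for 7 (9.14%), namely Slc2a6, Hk2, Tpi1, Eno1, Pkm, Ldha and Slc16a3, and below for 2 (5.76%), Pfkfb3 and Pdk1. For CD103+ cells the counts were 0 above (4.10%) and 3 below (2.90%), and for CD103- cells 0 above (4.42%) and 1 below (2.44%).

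Genes of neighbouring pathways were counted by list, with the share of all tested genes called likewise in brackets. The phagocyte oxidase consumes NADPH. Of its 7 subunits and regulators, 4 were higher (16.3%) and 0 lower (14.3%) in ductal than in stromal macrophages. Between ductal macrophages and dendritic cells, 4 differed upward (15.0%) and 1 downward (11.6%). In CD11b+ against CD11b- dendritic cells, 6 were higher (14.0%) and 0 lower (11.0%). Cybb, the catalytic subunit of the oxidase, averaged 2775 CPM in ductal macrophages, 261 in stromal macrophages, 589 in CD11b+, 30.9 in CD103+ and 45.4 in CD103- dendritic cells. Its log2 fold change was 3.41 ± 0.60 for ductal over stromal macrophages (adjusted p = 0.00172) and 3.97 ± 0.47 for CD11b+ over CD11b- dendritic cells (adjusted p = 0.000166).

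Of 15 glutathione, thioredoxin and other NADPH enzymes, ductal macrophages had 8 higher (15.0% of all tested genes) and 1 lower (11.6%) against dendritic cells. Against stromal macrophages they had 5 higher (16.3%) and 3 lower (14.3%). Gsr, glutathione reductase, averaged 172 CPM in ductal macrophages and 24.1 to 34.9 in the other 4 populations, with a log2 fold change of 2.49 ± 0.28 over stromal macrophages (adjusted p = 8.26e-05). In the same comparison Me1, malic enzyme and another source of NADPH, was lower (-3.06 ± 0.63, adjusted p = 0.00402), as was Hmox1, haem oxygenase (-2.08 ± 0.43, adjusted p = 0.00436). Idh1, cytosolic isocitrate dehydrogenase and a further source of NADPH, was higher in CD11b+ than in CD11b- cells (3.06 ± 0.27, adjusted p = 2e-05) and in stromal macrophages than in dendritic cells (2.78 ± 0.23, adjusted p = 8.02e-06).

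Of 13 other pentose phosphate genes tested, at most 3 were called in any one comparison. These 3 were in stromal macrophages against dendritic cells, where 38.4% of all tested genes were called. H6pd, which runs the oxidative arm in the endoplasmic reticulum, was higher in ductal macrophages than in dendritic cells (1.53 ± 0.30, adjusted p = 0.00278). Of 19 tested isozymes outside the 31 genes, at most 7 were called, 4 of them higher, in that same comparison (38.4% of all tested genes). The lactate carrier Slc16a7 (MCT2) had the largest fold change of those named there: it averaged 53.9 CPM in stromal and 37.1 in ductal macrophages, 14.3 in CD11b+, 4.20 in CD103+ and 5.41 in CD103- dendritic cells. Stromal macrophages, which had the least Slc16a3, were thus the highest in Slc16a7 (2.97 ± 0.22 against dendritic cells, adjusted p = 3e-06).

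Of 14 genes for pyruvate entry into mitochondria, 0 were called between ductal macrophages and dendritic cells (26.6% of all tested genes were). In stromal macrophages against dendritic cells, 4 were higher (20.3%) and 2 lower (18.2%). In CD11b+ against CD11b- cells, 3 were higher (14.0%) and 0 lower (11.0%). Pdk2, another pyruvate dehydrogenase kinase, was higher in stromal macrophages than in dendritic cells (1.67 ± 0.28, adjusted p = 0.000929). Pdha1, a subunit of the dehydrogenase itself, was higher in CD11b+ than in CD11b- cells (1.02 ± 0.20, adjusted p = 0.00436). In that comparison the kinase genes went in opposite directions: Pdk1 was lower and Pdk3 higher (0.90 ± 0.26, adjusted p = 0.0259).

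Between ductal and stromal macrophages, 16.3% of all tested genes were called higher and 14.3% lower. Of 9 genes of the hypoxia factor and its regulators, 3 were higher and 2 lower there. Hif3a had 76 and 75 counts in stromal macrophages, 0 in both ductal libraries and 0 or 1 in each dendritic cell library. It passed the low-count filter only through the stromal macrophages, so any call of Hif3a is not read as a result. Egln3 was lower in ductal macrophages (-3.94 ± 0.89, adjusted p = 0.00701), with 2 and 5 counts there, while Vhl, Egln2 and Hif1a were higher. Of 19 hypoxia targets outside glycolysis, 4 were higher and 5 lower. Among these targets, Car9, carbonic anhydrase 9, was higher by 2.57 ± 0.40 (adjusted p = 0.000748) and Vegfa by 2.58 ± 0.53 (adjusted p = 0.00409). Ndrg1 was lower (-1.40 ± 0.44, adjusted p = 0.034). The 5 lower ones also include Selenbp1 (-4.21 ± 0.40, adjusted p = 3.13e-05), whose direction of response to hypoxia was not tested here. Of the 16 sugar-sensing and growth regulators, 7 were higher (16.3% of all tested genes) and 3 lower (14.3%) in ductal than in stromal macrophages. Txnip, which restrains glucose uptake and is known to rise with intracellular glucose, averaged 833 CPM in stromal macrophages, 68.4 in ductal macrophages and 132 to 246 in dendritic cells (-3.61 ± 0.40 for ductal against stromal, adjusted p = 8.06e-05). Of 16 glycogen genes, 4 were higher (16.3%) and 2 lower (14.3%) in ductal than in stromal macrophages. In CD11b+ against CD11b- cells, 2 were higher (14.0%) and 4 lower (11.0%). In every one of these lists, edgeR called 0 genes between CD103+ and CD103- dendritic cells, where 0.0319% of all tested genes were called.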

How the data were processed

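RNA of 5 sorted populations, 2 libraries each, was extracted with a column kit, made into TruSeq libraries and sequenced as paired reads of 80 bases, per the labels' protocols. The authors deposited whole-number counts per gene, made with featureCounts on mm10 per the submitters' processing notes; for the aligner, annotation, strand setting and treatment of reads matching several genes, the sources used here give nothing. The 10 library tables equalled the series table. Entrez identifiers were named through RefSeq, which matched 25275 of 27179 genes.

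Counts were tested in R 4.3.3 with edgeR 4.0.16: filterByExpr (minimum count 10, minimum total 15) left 15681 genes, TMM factors ran from 0.779 to 1.36, and 1 quasi-likelihood fit over the 5 population means gave 5 contrasts and an F test, with Benjamini-Hochberg adjustment over all tested genes and a threshold of 0.05. Contrasts with dendritic cells used the mean of 3 populations, and CD11b- the mean of 2. Standard errors are the log2 fold change divided by the root of F. A count of 3, taken as the floor of a count of 0, came to 0.119 to 0.683 CPM, and floors cover counting error only. The 15 alternatives were relative log expression scaling, no low-count filter, no mitochondrial genes, a replicate block, DESeq2 1.42.0, and each of the 10 libraries left out in turn. The members, gene lists and tests were chosen with earlier results of these data known. Values in every library are given for up to 3 genes per role, those called among the 5 populations with the widest range, and for Gapdh; other genes given so, and the promoter motif, were chosen after their values were seen. From each other list, up to 4 called genes with the largest change and at least 10 CPM could be named.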

Additional observations from a re-analysis of the deposited data

How the results depend on the processing

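No called log2 fold change of the 31 genes changed sign in the 15 alternatives. Of up to 155 gene and comparison pairs, DESeq2 gained 8 calls and lost 0, no low-count filter gained 4 and lost 1, relative log expression scaling gained 3 and lost 2, leaving out mitochondrial genes gained 2 and lost 2, and the replicate block gained 0 and lost 3. Between CD103+ and CD103- dendritic cells, genes called higher among all tested genes went from 5 to 106 without the low-count filter, 3 with the replicate block and 119 in DESeq2, those called lower went from 0 to 44 without the filter and 31 in DESeq2, and DESeq2 called 1 of the 31 genes higher; the cause was not tested. The replicate numbers did not pair the libraries in a uniform way: correlations of same-numbered deviations ran from -0.176 to 0.177 over 10 pairs of populations, with 4 over 0.1. They were 0.102 to 0.126 among ductal macrophages, stromal macrophages and CD11b+ cells, and 0.177 between CD103+ and CD103- cells. Across these sets they were -0.176 to -0.124. What lies behind this pattern was not tested.

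Leaving out each library in turn left 8 to 12 of the 31 genes higher and 2 to 5 lower in ductal than in stromal macrophages (1555 to 2480 and 981 to 2263 of all genes). For ductal macrophages against dendritic cells it left 4 to 9 higher and 1 to 4 lower (1230 to 2547 and 755 to 2305), and for stromal macrophages 2 to 5 and 8 to 12 (2180 to 3095 and 2282 to 2671). For CD11b+ against CD11b- cells it left 6 to 12 and 1 to 4 (1141 to 2376 and 558 to 2206), for CD103+ against CD103- cells 0 and 0 (2 to 18 and 0 to 11), and among the 5 populations 20 to 24 (6037 to 8210). In these fits the population with 1 library was assumed to vary like the others. Ductal replicate 1 ended the most calls of ductal macrophages. Both ductal libraries and CD11b+ replicate 2 were the shallowest, with 3 counts worth up to 0.683 CPM, which bears on genes at a few CPM such as Fbp1, Pfkm, Pgk1 and Tigar.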
